A study of Mus musculus with 8 samples.

Results

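Plasma cells are the antibody-secreting end stage of the B cell lineage. The transcripts described here come from 10 genes of such cells: Jchain, Mzb1, Sdc1, Prdm1, Irf4, Xbp1, Tnfrsf17, Derl3, Pou2af1 and Eaf2. The rows with these symbols were taken from the deposited table, and all 10 were found among its 23084 genes. The table comes from RNA-sequencing of CD11b+Ly6C+ monocytic and CD11b+Ly6G+ granulocytic cells sorted from spleens of C57BL/6 mice aged 6 to 8 weeks. Its 8 samples form 4 groups of 2: wt CD11b+Ly6C+, wt CD11b+Ly6G+, LmnaMyeKO CD11b+Ly6C+ and LmnaMyeKO CD11b+Ly6G+ cells. LmnaMyeKO mice (genotype Lmna KO in the labels) carry floxed Lmna alleles and a Cre inserted in Lyz2 (LysM-Cre), which acts in monocytes, macrophages and granulocytes and is not a plasma cell driver. Whether the wt mice (WT in the labels) carry the floxed alleles or the Cre, whether these mice bore tumors, and how many mice gave a sample are not given in the sources used here. Titles were used to tell the subsets apart, because the label for cell markers reads CD11b+Ly6C+ also where a title reads CD11b+Ly6G+.

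When a B cell becomes a plasma cell, Irf4 and Prdm1 switch off the B cell programme, and Xbp1 enlarges the endoplasmic reticulum so that immunoglobulin can be folded and exported. Jchain links immunoglobulin monomers into IgM pentamers and IgA dimers. The spleen is a main site where plasma cells form. The samples here were sorted by CD11b with Ly6C or Ly6G, and which cells gave the transcripts was not tested. Several members are not exclusive to plasma cells, since Irf4 and Xbp1 are also used by dendritic cells and macrophages, Prdm1 by T cells and macrophages, and Pou2af1 by B cells at earlier stages.

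The value available for each gene is the authors' mean of counts divided by size factors, referred to as the mean signal. It is 1 value over the whole series, with no SD and no n, so no comparison between genotypes or between subsets was made. Genes with very low means show how it was formed. All 676 genes with a mean under 0.283 are whole-number sums of 8 constants, which is what a mean over 8 libraries with 8 different size factors gives. The mean therefore covers the wt and the LmnaMyeKO cells of both subsets together. The size factors recovered in this way lie between 0.796 and 1.048 for 7 of the libraries and at 1.91 for the other one, and which library is which was not assigned. The table itself gives no read total for a sample. The paper's methods give only a range of reads per sample. The size factors were not set against that range and are not read totals. A low mean can come from all libraries or from 1 of them, and in bulk RNA more cells of a type and more RNA per cell cannot be told apart. Markers of the sort were high: the mean signal per kb of exon was 10760.3 for Itgam (CD11b), 5260.2 for Ly6c2 and 8337 for Ly6g, and S100a9, a neutrophil gene, had the highest mean signal of all genes. For reference, Ptprc (CD45), Gapdh and Actb had 3237, 11515 and 69844 per kb. Lmna, the targeted gene, had a mean signal of 79.5, which cannot be split by genotype.

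Transcripts of plasma cell genes were present over a wide range of levels. The mean signal of the 10 members had a median of 498, against 46.8 over all genes of the table, and 9 of the 10 lay above that median. The table holds many genes that do not code for protein and many with hardly any reads. Against the median of the 15697 protein-coding genes, 256.8, the count above was 5 of 10, the same as against genes with a mean signal of at least 10. The 5 below were Derl3, Eaf2, Prdm1, Sdc1 and Tnfrsf17 in both cases, on the scale per kb as well. Of the reads that the 10 members drew, scaled but not adjusted for gene length, Jchain took 56.7%, and Jchain, Xbp1 and Pou2af1 together took 88.2%. All members together took 0.0759% of the signal in the table.

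**Figure D1:**
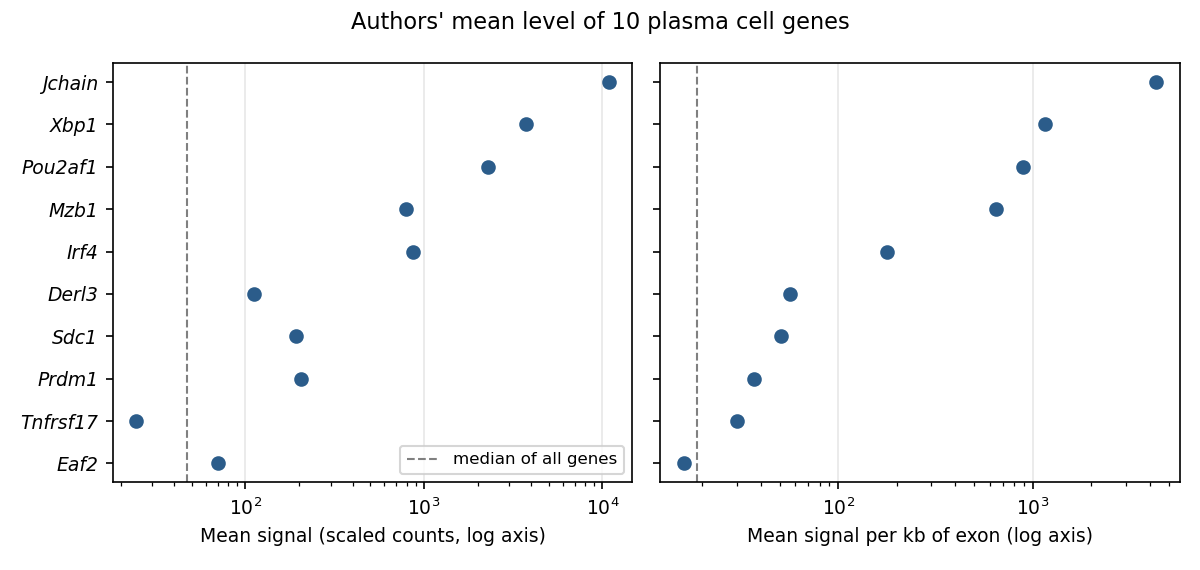
Each point is the authors' mean over all libraries for 1 gene, as mean signal in scaled counts (left) and per kb of exon (right), both on log axes, and the dashed line is the median of all genes. Jchain is the highest on both scales, Tnfrsf17 is the one member left of the line on the left and Eaf2 the one left of it on the right.

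**Figure D2:**
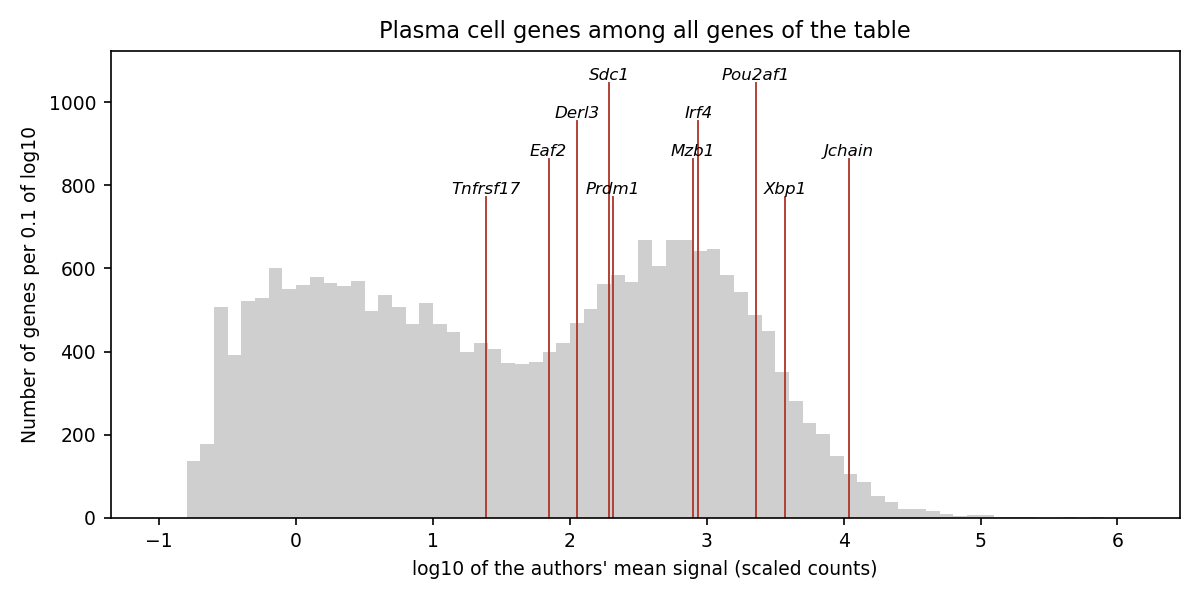
The histogram counts all genes of the table by the log10 of their mean signal, and each red line marks a member (line heights only separate the names). Jchain stands in the upper tail, and Tnfrsf17 stands just left of the dip between the low and the high genes.

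Because a long transcript yields more reads than a short one, ratios between genes were taken per kb, as the mean signal divided by the length of all annotated exons of the gene. The isoform in use is not known, so values with the median length of the annotated transcripts are given wherever they moved a named ratio by over 1.5 times. Per kb of all exons the order was Jchain, Xbp1, Pou2af1, Mzb1, Irf4, Derl3, Sdc1, Prdm1, Tnfrsf17 and Eaf2. The highest level was 269 times the lowest. Jchain stood 3.73-fold above Xbp1, Mzb1 3.67-fold above Irf4, and Irf4 3.14-fold above Derl3, whereas every other step was between 1.11-fold and 1.88-fold. With the median transcript length the step from Jchain to Xbp1 was 1.62-fold, that from Xbp1 to Pou2af1 3.07-fold, that from Mzb1 to Irf4 5.89-fold and that from Irf4 to Derl3 1.12-fold. Sdc1 then moved above Irf4, and Tnfrsf17 instead of Eaf2 was the lowest. Sdc1 was then 3.59-fold above Prdm1 and Prdm1 2.09-fold above Tnfrsf17. Derl3 was at 0.722 of the level of Sdc1, and Tnfrsf17 at 0.443 of that of Eaf2. On both lengths Jchain, Xbp1, Pou2af1 and Mzb1 led in this order, and the other 6 members were all lower than Mzb1. Xbp1 was only 1.29-fold above Pou2af1 per kb of all exons. Pou2af1 was only 1.38-fold above Mzb1 per kb of all exons and 1.09-fold with the median transcript length. Spread between replicates is unknown here. The order of Xbp1 and Pou2af1, that of Pou2af1 and Mzb1, and that within the other 6 therefore cannot be given.

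The first role to describe is that of the secretory machinery, with 3 members. Jchain (ENSMUSG00000067149.6) encodes the joining chain of secreted IgM and IgA. In mm10, the build of all gene positions given here, it occupies chromosome 5 from 88519809 to 88527891 (minus strand). Its mean signal was 10848, higher than 98.5% of all genes, and its level was 4310.0 per kb. That level is close to the 4065 per kb of Cd79a, a subunit of the B cell receptor, and no gene of the mature B cell list was higher. It is 0.127 of the level of Ighm and 0.0563 of that of Igkc, the mu heavy chain and the kappa light chain constant genes.

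Mzb1 (ENSMUSG00000024353.4) encodes an endoplasmic reticulum protein of marginal zone B cells and plasma cells that helps assemble IgM. It occupies chromosome 18 from 35647267 to 35649367 (minus strand). Its mean signal was 790.0, higher than 78.5% of genes, but with only 1.215 kb of exon its level of 650.2 per kb put it above 92.4%. Jchain was 6.63-fold higher per kb than Mzb1. The annotation places another gene, listed as SPATA24, over part of Mzb1 on the same strand, so reads of the overlap may have been assigned to either.

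Derl3 (ENSMUSG00000009092.4) encodes derlin 3, which helps to move misfolded proteins out of the endoplasmic reticulum for degradation. It lies on the plus strand of chromosome 10 from 75893413 to 75895941. Its mean signal was 112 and its level 56.4 per kb. Its relatives were higher, with Derl1 at 15.9-fold and Derl2 at 2.05-fold the level of Derl3, or 9.09-fold and 6.46-fold with the median transcript length. Derl3, the derlin most typical of secretory cells, was thus the lowest of the family in the mean of these libraries.

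Xbp1 (ENSMUSG00000020484.18), the transcription factor of the secretory programme, had the highest value of the 5 members that act on transcription. Per kb of all exons it was only 1.29-fold above Pou2af1. It spans chromosome 11 from 5520659 to 5525893 on the plus strand. Its mean signal was 3749.9 and its level 1155 per kb, higher than 95.8% of genes. Xbp1 messenger RNA codes for the active factor only after the endoplasmic reticulum stress sensor IRE1, encoded by Ern1, has cut out 26 bases of exon 4, which shifts the reading frame. These bases are at chr11:5524279-5524304 and are printed because the mean signal cannot see them. Of 4 annotated Xbp1 transcripts in GENCODE M21, 3 contain the stretch and 0 have it removed, so both forms count as the same gene and the level does not tell how much of it was the active form. In the line here the capitals mark the removed bases, with 18 bases to either side.
Xbp1: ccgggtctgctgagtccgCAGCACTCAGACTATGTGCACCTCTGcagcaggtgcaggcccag

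Pou2af1 (ENSMUSG00000032053.8) encodes OBF-1 (OCA-B), a coactivator of the octamer-binding factors on immunoglobulin promoters. It is located on chromosome 9 from 51213708 to 51240080 on the plus strand. Its mean signal was 2280.0, and its level of 894 per kb stood above 94.4% of genes. Cd79a was 4.54-fold higher per kb. A second annotated gene, Gm47828, overlaps Pou2af1 on the same strand.

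Irf4 (ENSMUSG00000021356.9), a factor required for plasma cells and also for some dendritic cells and macrophages, lies on chromosome 13 from 30749226 to 30766976 on the plus strand. The mean signal of Irf4 was 869 and its level 177 per kb. Irf8, the related factor of monocytes and B cells, was at 2.76-fold the level of Irf4 per kb of all exons and at 14.7-fold with the median transcript length. Prdm1 (ENSMUSG00000038151.12) encodes Blimp-1, the repressor that ends the B cell programme, on chromosome 10 from 44437177 to 44528501 on the minus strand. Its mean signal of 206 was higher than 62.6% of genes, and its level was 36.9 per kb. Irf4 was at 4.80-fold the level of Prdm1, and at 2.90-fold with the median transcript length.

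Eaf2 (ENSMUSG00000022838.13), a partner of the ELL elongation factors, was the lowest member per kb of all exons. It occupies chromosome 16 from 36792884 to 36875003 (minus strand). Its mean signal was 69.9 and its level 15.99 per kb, under the median of 18.8 over all genes, but its level was 67.9 per kb of median transcript. It overlaps Iqcb1 and AC154232.1 on the other strand, and whether the counting used strand is not given in the sources used here. Its known partner Ell2, which favours the secreted form of immunoglobulin messenger RNA, had a level of 108 per kb.

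The 2 surface members were among the 5 below the median of protein-coding genes. Sdc1 (ENSMUSG00000020592.14) encodes syndecan 1 (CD138), the antigen by which plasma cells are commonly sorted, on chromosome 12 from 8771323 to 8793715 on the plus strand. The mean signal of Sdc1 was 193 and its level 50.7 per kb, so that Jchain was at 85.0-fold its level. With the median transcript length, which for Sdc1 is 0.855 kb against 3.809 kb of all exons, its level was 226 per kb and Jchain was at 25.7-fold. Tnfrsf17 (ENSMUSG00000022496.5) encodes BCMA, the receptor through which APRIL keeps plasma cells alive, on chromosome 16 from 11313812 to 11320074 on the plus strand. The mean signal of Tnfrsf17 was 24.5, higher than 45.3% of genes, and its level was 30.1 per kb. The other receptors of the same ligand family were higher, with Tnfrsf13c (BAFF receptor) at 20.2-fold and Tnfrsf13b (TACI) at 11.9-fold the level of Tnfrsf17, or 32.5-fold and 51.2-fold with the median transcript length. Both of these are carried by B cells that have not become plasma cells.

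Low values still rest on many reads. Over the 8 libraries, the mean signal of Tnfrsf17 corresponds to between 156 and 375 reads, the bounds being set by the lowest and the highest size factor, and that of Eaf2 to between 445 and 1070. The counting error of the mean is then at most 8.01% for Tnfrsf17, 4.74% for Eaf2 and under 4% for the other members. These figures cover counting error only and not the spread between samples, which is unknown.

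The genes that oppose the plasma cell programme were higher than Prdm1, the repressor that ends the B cell programme. In a list of 8 antagonists of plasma cell development, all 8 had a higher level per kb than Prdm1 with either length, with a median of 377. Prdm1 was itself higher per kb than 57.3% of all genes, but lay under the median of protein-coding genes, 60.2 per kb. A level above that of Prdm1 is thus not particular to this list. Pax5, which holds B cells in their identity, was 13.97-fold and Bach2, which delays Prdm1, 3.75-fold the level of Prdm1, and with the median transcript length they were at 72.0-fold and 33.2-fold. Ets1, Bcl6 and Id3 had levels of 865, 753 and 117 per kb. Bcl6 and Ets1 are also expressed in myeloid or T cells, so the list is not particular to B cells.

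The wider secretory pathway was present in these libraries. Of 27 genes of protein folding, export and the unfolded protein response, 26 lay above the median of all genes in mean signal, with a median of 409.6 per kb for the list against 117 for the plasma cell genes. Hsp90b1 and Hspa5, the chaperones GRP94 and BiP, had levels of 2255 and 1923 per kb. Fkbp11, a prolyl isomerase typical of secretory cells, lay below the median, at 9.77 per kb. Per kb of all exons, Jchain stood above all 27, of which the chaperone Calr was the highest at 2539.6, but with the median transcript length 4 of the 27 stood above Jchain. Xbp1 stood between Hspa5 and Herpud1, the latter at 957 per kb, with 3 genes above it, and with the median transcript length 5 stood above it. Pou2af1 stood between Derl1 at 899.8 and Edem1 at 881, and Mzb1 between Pdia6 at 666 and Spcs1 at 640.0. Irf4 stood between Ern1 at 182 and Derl2 at 116, and the remaining 5 members between Ell2 at 108 and Fkbp11. Genes of this pathway are used in most cell types, and the table cannot divide their signal among them.

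A list of 10 further genes concerns the plasma cell surface and survival, and all 10 were higher per kb than Tnfrsf17 with either length. The list includes Tnfrsf13b and Tnfrsf13c, which are carried by B cells that have not become plasma cells. Tnfrsf17 was higher per kb than 54.9% of all genes, but lay under the median of protein-coding genes, 60.2 per kb. The count is thus not particular to this list. Mcl1, which protects plasma cells and neutrophils from apoptosis, and Cxcr4, the homing receptor for bone marrow, had levels of 9906 and 5620.5 per kb. Cd28, a costimulatory receptor, had 49.4 per kb. Slamf7 and Fcrl5, both known from plasma cells and B cell subsets, had levels of 100.4 and 112 per kb.

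The median level of the immunoglobulin constant region genes exceeded that of the plasma cell genes, although not every constant gene was higher. The 12 constant genes had a median of 3137 per kb, and 4 of them (Igkc, Ighm, Ighg2c and Igha) were higher than Jchain with either length. Igkc and Ighm stood at 76527 and 33999 per kb, and Ighe, the epsilon heavy chain, at 14.5. The 10 genes of mature B cells had a median of 770 per kb and all lay above the median of all genes. Cd79a and Cd22 had 4065 and 1014 per kb, and Ebf1, a factor of early B cells, had 80.4. Which cells gave these transcripts was not tested.

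**Figure D3:**
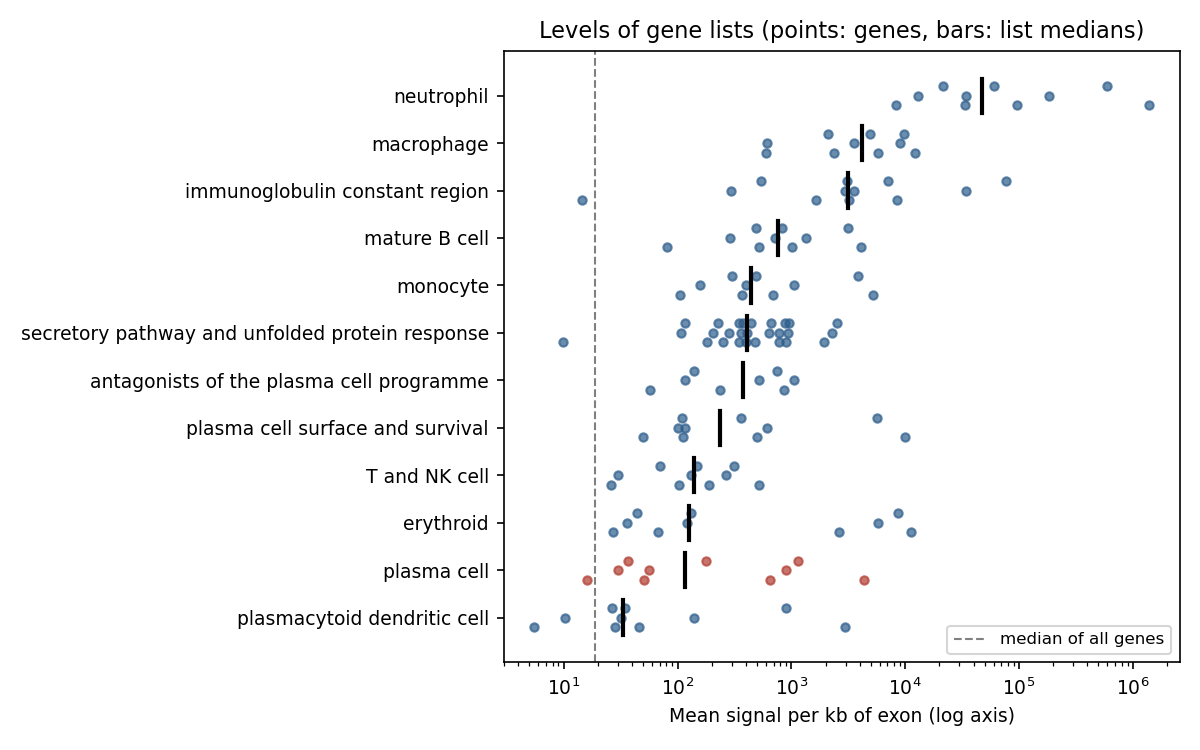
Each point is a gene at its mean signal per kb of exon (log axis), grouped by list (offsets within a row only separate the points), with black bars for list medians and a dashed line for the median of all genes. The plasma cell genes, in red, have the second lowest median of the 12 lists but spread from 15.99 to 4310.0 per kb.

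Set against 11 other lists by median level per kb, the plasma cell genes were above 1 list, that of plasmacytoid dendritic cells (33.1), and below 10, the same with the median transcript length. The closest were the lists of erythroid genes, with a median of 126, and of T and NK cell genes, with 139. Neutrophil genes were far higher, at 47126, followed by macrophage genes at 4212, and monocyte genes stood at 445. S100a9 was 322-fold the level of Jchain per kb. The lists differ in size and in how sharply their genes mark a cell type, so their medians are a description and were not tested.

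Sequence features of the members were read from the promoter table, which gives the 250 bases before and the 50 bases after each RefSeq transcription start on GRCm38.p6. It holds 11 promoters for 9 of the members, with 3 for Eaf2, and 32851 promoters in all. Both strands were searched for the octamer ATTTGCAT, the core TGACGTG of the unfolded protein response element bound by XBP1, the core GTGAAAG of PRDM1 sites, the CCAAT box (CCAAT) and the TATA box (TATAAA). The octamer was found in 0 of the 11, against 1.74% of all promoters. The response element core was found in the promoter of Pou2af1 alone, at position -61 on the strand of the gene, against 2.01% of all promoters. The PRDM1 core was found in 1 promoter, of Eaf2, against 4.24% of all. TATAAA was found in 3 of the 11, against 13.6% of all. It begins at position -26 in Irf4, at -114 in Tnfrsf17 and at -248 in 1 promoter of Eaf2.

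CCAAT boxes were found in 7 of the 11 promoters, against 37.4% of all. These were the promoters of Derl3, Pou2af1, Prdm1 and Sdc1 and every promoter of Eaf2, so Eaf2 counts more than once. The promoter of Derl3 held 5 boxes, the most in any single promoter of a member. All were on the opposite strand, where they read ATTGG. The CCAAT box is a part of the endoplasmic reticulum stress element, and Derl3 is a known target of that response. The rest of the element was not searched for, so the count does not tell which boxes belong to one. These matches describe the letters in the window and do not show binding.

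**Figure D4:**
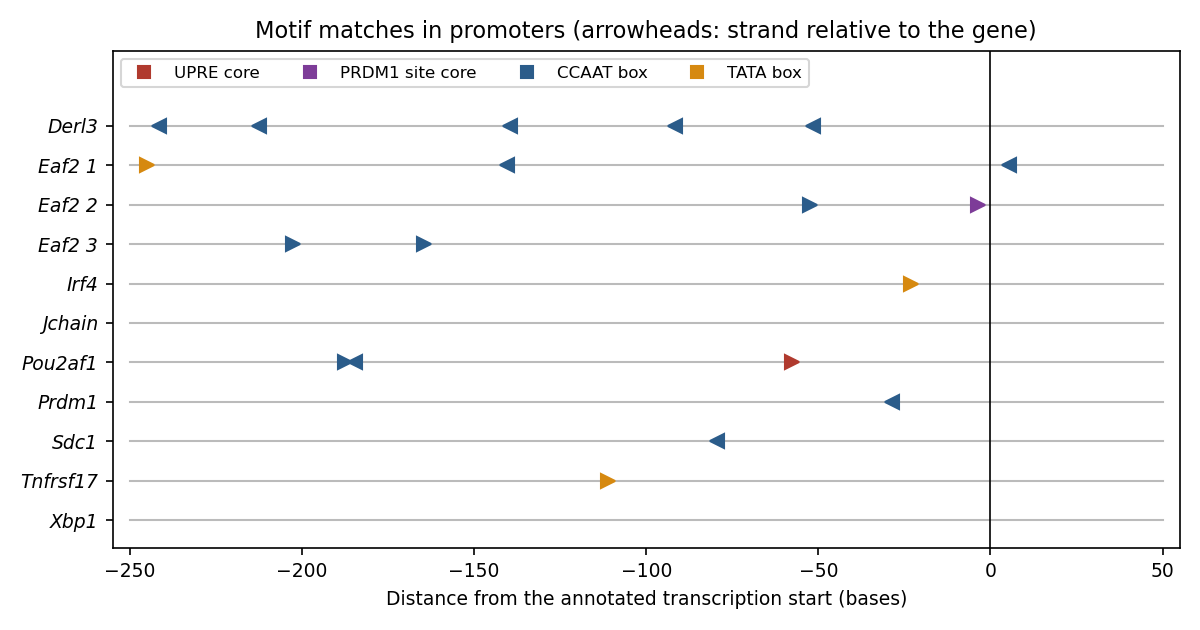
Each grey line is a RefSeq promoter of a member, plotted by distance from the transcription start in bases, with arrowheads for motif matches pointing along their strand relative to the gene. Derl3 carries 5 CCAAT boxes before its start, Pou2af1 the one response element core, and the lines of Jchain and Xbp1 carry no match.

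The upstream 250 bases are printed for Jchain, the member with the highest level, for Pou2af1, which holds the response element core, and for Derl3, which holds the row of CCAAT boxes. They are at chr5:88527898-88528147 on the minus strand, chr9:51213440-51213689 on the plus strand and chr10:75893148-75893397 on the plus strand of GRCm38.p6, from RefSeq. Capitals mark every match to a searched motif, and the sequence of Jchain has none. In Pou2af1 the 2 overlapping CCAAT boxes on opposite strands appear as a single run of capitals.
Jchain: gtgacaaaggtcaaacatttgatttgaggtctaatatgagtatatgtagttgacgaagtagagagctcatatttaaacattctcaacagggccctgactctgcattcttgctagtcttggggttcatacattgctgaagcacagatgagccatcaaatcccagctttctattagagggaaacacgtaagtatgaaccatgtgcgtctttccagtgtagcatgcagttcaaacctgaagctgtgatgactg
Pou2af1: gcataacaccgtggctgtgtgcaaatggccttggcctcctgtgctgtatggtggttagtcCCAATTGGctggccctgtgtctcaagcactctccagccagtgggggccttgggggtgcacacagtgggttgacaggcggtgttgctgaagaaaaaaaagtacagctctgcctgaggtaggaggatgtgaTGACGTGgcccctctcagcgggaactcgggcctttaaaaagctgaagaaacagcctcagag
Derl3: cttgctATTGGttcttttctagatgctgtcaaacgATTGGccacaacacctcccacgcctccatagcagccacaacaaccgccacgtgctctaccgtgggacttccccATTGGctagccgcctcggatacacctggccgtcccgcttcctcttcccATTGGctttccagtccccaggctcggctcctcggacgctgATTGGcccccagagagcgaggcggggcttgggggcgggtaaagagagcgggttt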

How the data were processed

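RNA-seq of 8 samples in 4 groups of 2 was analysed. Per the paper's methods, adapters were removed with cutadapt (1.14), STAR (2.5.2b) mapped the reads to mm10, and the authors used RSEM (1.3.0) with GENCODE for quantification and DESeq2 (1.20.0) for the comparison. The table deposited by the authors gives 1 mean signal per gene, an average of counts divided by size factors. Its other 6 columns (log2 fold changes, standard errors, test statistics, p-values and fold changes) hold the authors' own comparison of wt with lamin A/C-deficient cells and were not used. Without values per sample the planned count test was not run, and neither a genotype effect nor its replicate error is reported.

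Members, lists and named genes were chosen with earlier results of these data known. Named genes are the 10 members, the 2 highest and the lowest of each other list by mean signal, the secretory pathway genes next to a member in level, Lmna, Ptprc, Itgam, Actb and Gapdh. Named outside this rule, with their values known, were Tnfrsf13b, Tnfrsf13c, Irf8, Pax5, Bach2, Slamf7, Fcrl5, Igha, Ighg2c and Tcf4. Of rows sharing a symbol (28 symbols), the highest was kept. Exon lengths, positions and overlaps came from GENCODE M21 (mm10, a later release than that of the authors), which matched 23004 of 23084 identifiers. The number of libraries was found by writing means in the lowest 3% of genes as sums of whole reads, within 4e-06, with up to 12 libraries tried, and was tested on simulated data. The table gives no read total per sample. Alternatives were other scales, gene sets, transcript lengths and list summaries. The median of other gene sets and ratios with other lengths were added after the data were seen. Python 3.11.15, pandas 2.3.3 and numpy 2.4.6 were used.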

Additional observations from a re-analysis of the deposited data

How the results depend on the processing

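With no replicate values, a level was taken to have moved when it changed by over 1.5 times. The median level of the members was 498 as mean signal, the same with duplicate rows summed, and 117 per kb, which is another unit. Their median percentile was 70.6 over all genes and moved by less than this limit among protein-coding genes, among genes with a mean signal of at least 10 and per kb. Of 30 percentiles of single members under these alternatives, 23 kept within the limit and 7 fell by more, all of them members in the lower part of the order ranked among fewer genes. The count of members above the median was 9 of 10 over all genes, but 5 over protein-coding genes and 5 over genes with a mean signal of at least 10, both as mean signal and per kb. These 2 alternatives were added after the data were seen. Against the order per kb of all exons, 10 of 10 members kept their place with the longest transcript, 4 with the median transcript and 4 without length scaling. The plasma cell genes lay above 1 of the other lists by median per kb, above 2 by median mean signal and above 3 by summed level per kb. No paired analysis was possible because values per sample were not in the table used here, and for the same reason the count test, its DESeq2 alternative and fits that leave out a replicate were not run. Pooling over genotypes and subsets limits all values here to levels.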

Other observations

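Genes of other cell types were read from the same mean over all libraries, as mean signal per kb of all exons. Among monocyte genes, Csf1r (the receptor of M-CSF) had 3838, Ly6c2 had 5260.2 and Klf4 had 105. Among neutrophil genes, S100a8 had 595562 and Ly6g had 8337. Of the splenic macrophage genes, Slc40a1, the iron exporter, had 3532, Hmox1, which degrades heme, had 12182 and Spic had 603. Hemoglobin genes Hbb-bs and Hba-a2 had 11172 and 8590.0, whereas the erythroid factor Klf1 had 35.99. The T and NK cell genes Lck, Cd4 and Ncr1 had 311, 188 and 26.2. Among plasmacytoid dendritic cell genes, Ly6d, Runx2 and Klk1 had 2967, 139 and 26.7. Tcf4, which like Ly6d is also used by B cells, had 31.9. The share of each sample in these levels cannot be told from a pooled mean.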
